A study of Mus musculus with 2 samples.

Results

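The cells described here are 171 macrophages of mouse pancreatic islets in which the RNA of Cx3cr1, Tgfbr1, Myo1f, Arhgap45, Pou2f2 and Tifab was highest. They are the 10% with the highest summed level of these 6 genes among 1706 gated macrophages, out of 2237 barcodes in all. The islets of 6 to 8 male C57BL/6J mice of WT genotype were pooled, and live (DAPI-negative), Epcam-negative, CD45+ cells were sorted and stained with DNA-barcoded antibodies against CD9 and CD206. CD9 is a tetraspanin of the plasma membrane, and CD206 is the mannose receptor of macrophages, the product of Mrc1. The mRNA and the antibody tags (ADT) of the same cells were read as 2 libraries, so the series is 1 sample in 1 group, for which the labels name no treatment and no age. Mice, days and sorts were not replicated. Every interval below is a 95% interval that covers counting error only, and no p-value was computed.

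Macrophages reside in islets in steady state and are the main immune cells there. CX3CR1 is the receptor for the membrane-bound chemokine fractalkine, which Cx3cl1 encodes. TGF-beta binds a type II receptor, which activates the type I receptor encoded by Tgfbr1, and this kinase then activates SMAD2 and SMAD3. Both receptors are textbook features of resting resident macrophages such as microglia. The series' title concerns antioxidant genes of islet macrophages. Many such genes are targets of the transcription factor NRF2 (Nfe2l2), which KEAP1 marks for degradation in unstressed cells.

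The other 4 genes of the rule encode a class I myosin (Myo1f), a GTPase-activating protein (Arhgap45), a POU-domain transcription factor also called Oct2 (Pou2f2) and a relative of the TRAF6 adaptor TIFA (Tifab). The values that chose the cells are given as a description. Levels are given as CPM, the unique molecular identifiers (UMIs) of a gene summed over the cells of a group and scaled to 1000000 RNA UMIs of that group. The 6 genes together stood at 4557 CPM in the 171 cells and at 1025 CPM in the other 1535 gated macrophages. The median cell scored 4256 CPM in the first group and 764 CPM in the second. The score was continuous at the threshold: the lowest chosen cell had 3354 CPM and the highest cell left out had 3342 CPM, with 31 chosen and 47 other cells within 10% of the cut. The 171 cells are thus the upper end of a range.

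**Figure D1:**
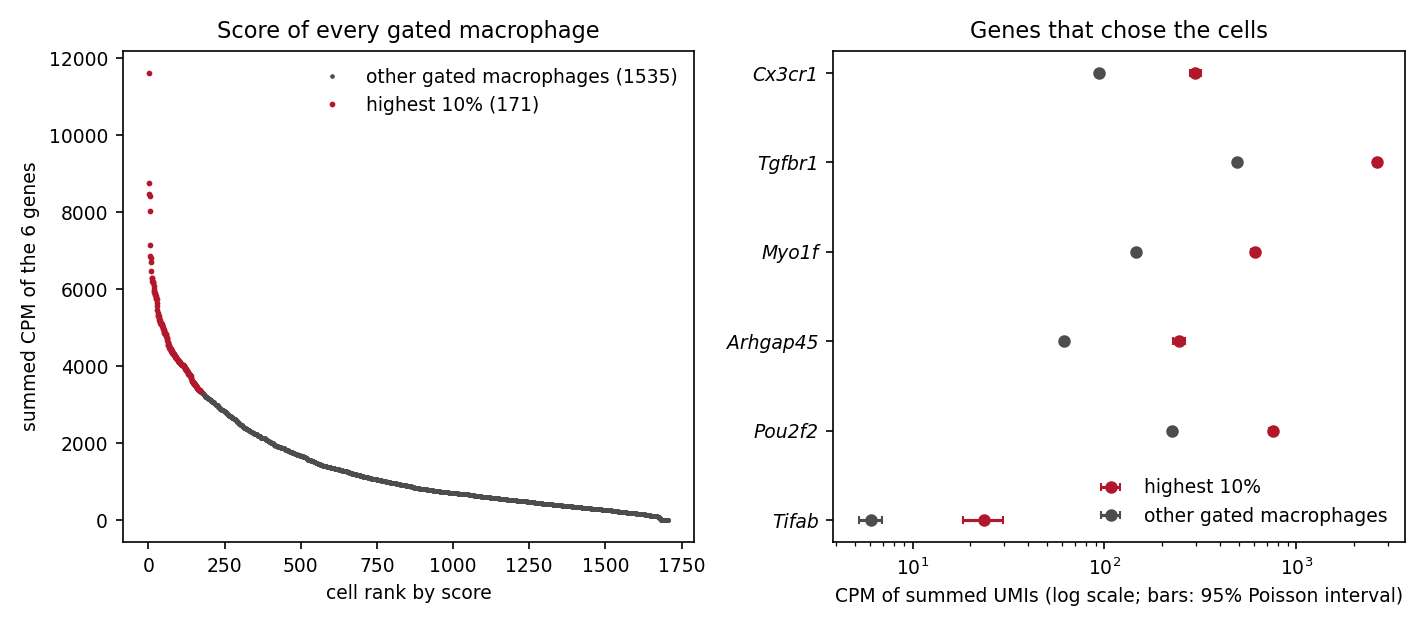
Left, the score (summed CPM of the 6 genes) of each of the 1706 gated macrophages against its rank, the 171 chosen cells in red; right, the level of each of the 6 genes (CPM of summed UMIs, log axis) in the chosen cells (red) and the other gated macrophages (grey), with exact 95% Poisson intervals. The score falls without a gap from 11608 CPM through the cut near 3354 CPM, and each of the 6 genes lies higher in the chosen cells because it was used to choose them.

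Tgfbr1 (chr4:47353222-47414926, GRCm38) gave 57.7% of the summed score of the 171 cells, at 2628 CPM beside 492 CPM in the other cells. Its level in single chosen cells ran from 634 to 7334 CPM with a median of 2425 CPM. Cx3cr1 (chr9:120048683-120068296) stood at 298 beside 94.0 CPM and was not detected in every chosen cell, since its lowest value there was 0. Pou2f2 (chr7:25087350-25180797) stood at 754 beside 225 CPM and Myo1f (chr17:33555707-33607764) at 610 beside 146 CPM. Arhgap45 (chr10:80016672-80031471) stood at 245 beside 61.7 CPM. Tifab (chr13:56173703-56179002) had 73 UMIs in all 171 cells, 23.5 beside 6.07 CPM, and gave 0.516% of their score. UMIs of 5 of the 6 genes were found in 96 of the chosen cells and of all 6 in 45, beside 355 and 74 of the other cells.

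Each gene was then read in cells that it had not helped to choose, by ranking the macrophages on the remaining 5 genes. Cx3cr1 was 2.72-fold higher (2.52 to 2.93) in the highest 10% so chosen, and Tgfbr1 was 3.28-fold higher (3.19 to 3.38). Myo1f was 3.54-fold, Arhgap45 3.66-fold, Pou2f2 2.83-fold and Tifab 3.59-fold higher. Each of the 6 genes was thus higher where the other 5 were high. The 6 genes were grouped with earlier results of these data known, so this is a description and no independent support. Because of its weight, leaving out Tgfbr1 changed the choice most: 114 of 171 cells (66.7%) were kept, against 152 to 169 when any other gene was left out.

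Macrophage markers were present. All 12 macrophage markers looked for were detected in the 171 cells. C1qa, C1qb and C1qc are among them, and the gate set a minimum for their summed level, so they are no independent support. Of the 12, 1 (8.33%) was at least 1.5-fold higher and 0 were lower, beside 22.2% and 14.9% of all genes. C1qa stood at 3112 CPM beside 2505 CPM in the other macrophages and Csf1r at 464 beside 318 CPM. Adgre1, which encodes F4/80, stood at 538 beside 342 CPM. Apoe, of the same list, went the other way, with a median over single cells of 6596 beside 8119 CPM. The 12 monocyte markers summed to 92.0 beside 183 CPM, with a range over single cells of 0 to 1707 CPM in the 171 cells and 0 to 1656 CPM in the others. Of these sums the inducible gene Nr4a1 gave 27.0 CPM in the 171 cells and 130 CPM in the others. Of 10 monocyte markers measured, 2 were higher and 6 lower (60%, beside 14.9% of all genes), of which 1 and 2 had intervals that exclude 1. The sums thus give no direction for the remaining markers. Among them Hp and Ace had no UMI in the 171 cells, Plac8, F13a1 and Ly6c2 had 3 each, and Ccr2, at 49.2 beside 26.9 CPM, drew 22.9% of its UMIs there from 1 cell. Cd3d, Cd3e, Cd2, Trbc1, Trbc2 and Cd8a, markers of T cells, also had none, nor had 7 of 8 markers of natural killer cells. The 8 markers of type 2 dendritic cells, among which Clec10a had no UMI, summed to 254 beside 224 CPM, with 1 higher and 3 lower. The 8 markers of type 1 dendritic cells summed to 1072 beside 822 CPM, with 0 higher and 2 lower. The 15 markers of islet endocrine cells summed to 3109 beside 2949 CPM.

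The chosen cells carried less RNA and more genes for their depth. Their median was 17698 RNA UMIs (quartiles 14740 and 21278) and 4071 genes, beside 21342 UMIs and 4010 genes in the other cells. Thinned to 5000 UMIs each, the medians were 2026 and 1873 genes. The mitochondrial share was 1.30% beside 1.38% of UMIs. Of the 40 cells with the highest doublet scores, 0 were among the 171 and 37 were other gated macrophages. The part of depth in the differences below was not tested beyond the alternatives given.

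Across all 12976 genes outside the rule with at least 20 UMIs in both groups together, 2884 (22.2%) were at least 1.5-fold higher in the 171 cells and 1937 (14.9%) at least 1.5-fold lower. Of these, 2183 (16.8% of the genes) and 1028 (7.92%) had intervals that exclude 1. Of the 9939 genes with at least 100 UMIs, 2075 (20.9%) were higher and 1068 (10.7%) lower. When the groups were scaled by the median ratio of genes instead of by total UMIs, 1787 were higher and 2471 lower. The split of higher and lower genes thus depended on the scaling. The median gene had a log2 ratio of 0.16 under the scaling by total UMIs, and the other scaling lowers every log2 ratio by 0.20. The lists below are read against those 2 shares and that median. As the cells were chosen by their RNA, all of these ratios describe the choice.

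**Figure D2:**
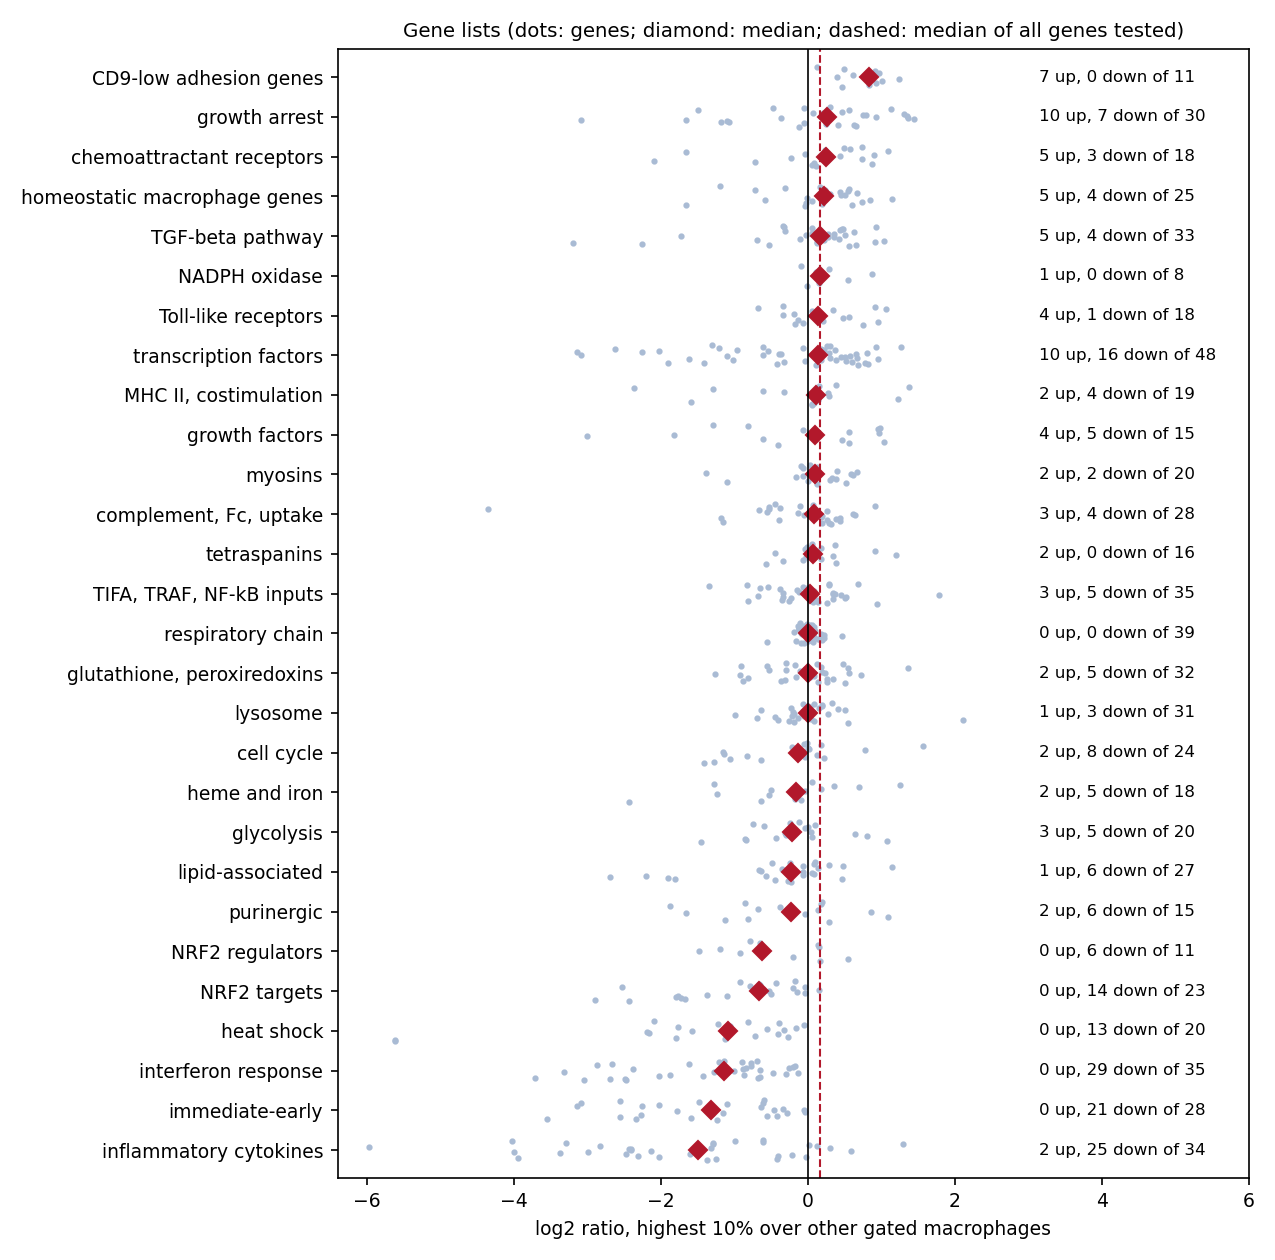
Log2 ratio of the chosen cells over the other gated macrophages (x axis) for each tested gene (dots) of 28 gene lists (rows), with the median of each list (diamond), the median of all genes (dashed line, 0.16) and the numbers of genes at least 1.5-fold higher and lower. The lists of inflammatory cytokines, immediate-early genes, interferon response, heat shock, NRF2 targets and NRF2 regulators lie left of 0.

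Antioxidant genes under NRF2 were low in the Cx3cr1 and Tgfbr1-high cells. Of 23 measured NRF2 targets, 0 were at least 1.5-fold higher and 14 were lower (60.9%, beside 14.9% of all genes), with a median log2 ratio of -0.67. Their summed level per cell lay below the median of the other macrophages in 156 of the 171 cells (91.2%). The alternatives kept this median between -0.89 and -0.47.

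Hmox1 (chr8:75093618-75100593), heme oxygenase 1, had a lowest value of 0, a median of 215 and a highest value of 9086 CPM over the 171 cells. Over the other macrophages these values were 0, 2456 and 20064 CPM. The ranges overlapped, but 159 of the 171 cells (93.0%) lay below the other cells' median. Summed, Hmox1 stood at 653 beside 3545 CPM, a ratio of 0.184 (0.176 to 0.192).

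Prdx1 (chr4:116685599-116700000), a peroxiredoxin that reduces hydrogen peroxide, had a median of 984 CPM (0 to 13067) in the 171 cells and of 4089 CPM (0 to 21918) in the others. Its summed ratio was 0.385 (0.375 to 0.395). The enzymes of glutathione synthesis showed the same order. Gclc, the catalytic subunit of glutamate-cysteine ligase, stood at 91.7 beside 294 CPM (ratio 0.312, 0.277 to 0.351) and Gclm, its modifier subunit, at 95.6 beside 316 CPM (ratio 0.303). Slc7a11, which imports the cystine this synthesis needs, was at 106 beside 360 CPM (ratio 0.293). Srxn1 (chr2:152105524-152111376), sulfiredoxin, which repairs overoxidised peroxiredoxins, was at 120 beside 417 CPM (ratio 0.288). Txnrd1, thioredoxin reductase 1, had a ratio of 0.467, and Nqo1, a quinone reductase, 0.134 with only 7 UMIs in the 171 cells.

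The mRNA of the regulator itself differed little. Nfe2l2 stood at 1070.4 beside 954 CPM (ratio 1.12, 1.08 to 1.16), with a log2 ratio of 0.17 that was -0.03 under the median-ratio scaling, and Keap1 at 50.5 beside 58.0 CPM (ratio 0.872, 0.736 to 1.03). Bach1, a repressor at the same DNA sites, had a ratio of 0.647. The small Maf genes, whose products pair with NRF2 on DNA, had ratios of 0.528 (Mafg), 0.435 (Mafk) and 0.357 (Maff). Of the 11 NRF2 regulators measured, 0 were higher and 6 lower.

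Antioxidant genes outside that list were divided. Among 32 genes of glutathione use, thioredoxins and superoxide removal, 2 were higher and 5 lower, with a median log2 ratio of -0.00. Gpx1, glutathione peroxidase 1, stood at 514 beside 364 CPM (ratio 1.41, 1.34 to 1.49). Txnip, which binds thioredoxin, stood at 82.7 beside 32.2 CPM (ratio 2.57, 2.23 to 2.94). Sod2, the mitochondrial superoxide dismutase, had a ratio of 0.532. Of 8 measured genes of the NADPH oxidase, the main superoxide source of phagocytes, 1 was higher (Ncf4, ratio 1.83) and 0 were lower.

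Inflammatory cytokine and chemokine genes had the lowest median of the 28 lists plotted. Of 34 measured, 25 were lower (73.5%) and 2 higher, with a median log2 ratio of -1.49. Cxcl2 (chr5:90903899-90905938), a neutrophil attractant, had a median of 56.0 CPM (0 to 6635) in the 171 cells beside 1233 CPM (0 to 46471) in the others. Its summed level was 373 beside 3882 CPM (ratio 0.0962, 0.0907 to 0.102). Ptgs2, the inducible cyclooxygenase, had a ratio of 0.0610, Il6 of 0.0646 and Ccl7, with 2 UMIs in the 171 cells, of 0.0159. Cxcl16, a membrane-bound chemokine, was higher at 901 beside 598 CPM (ratio 1.51).

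Il1b and Tnf, named after their values had been seen, did not share this size of difference. The median cell had 959 CPM of Il1b among the 171 cells and 845 CPM among the others, while the summed levels were 1431 and 1912 CPM. For Tnf the summed levels were 416 and 483 CPM. In both genes the 2 groups overlapped widely, with 80 and 97 of the 171 cells below the other cells' median.

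Interferon-stimulated genes were lower in 29 of 35 and higher in 0, with a median log2 ratio of -1.15. Rsad2 (chr12:26442743-26456452), the antiviral enzyme viperin, had a median of 0 and a highest value of 2170 CPM over the 171 cells, beside a median of 93.9 and a highest value of 22104 CPM. Summed, it stood at 91.4 beside 1205 CPM (ratio 0.0759, 0.0673 to 0.0853). Cmpk2, its neighbour on the chromosome, had a ratio of 0.0997, Ifit1 of 0.120 and Gbp5 of 0.137.

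Heat-shock genes were lower in 13 of 20 and higher in 0 (median log2 ratio -1.09). Hspa1a (chr17:34969359-34972156) stood at 23.8 beside 1176 CPM (ratio 0.0202, 0.0159 to 0.0254) and Hspa1b (chr17:34956429-34959238) at 25.7 beside 1265 CPM (ratio 0.0204). These 2 genes encode nearly identical HSP70 chaperones, so reads may have been split between them. Dnajb1 and Dnajb4, their co-chaperones, had ratios of 0.224 and 0.219.

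Immediate-early genes, transcription factors and feedback regulators that are induced within minutes of a stimulus, were lower in 21 of 28 and higher in 0 (median log2 ratio -1.32). Jun stood at 26.7 beside 157 CPM (ratio 0.170, 0.135 to 0.211), Egr1 at 28.3 beside 137 CPM (ratio 0.207) and Fos at 92.7 beside 218 CPM (ratio 0.425). Atf3 had a ratio of 0.291 and Fosl1 of 0.0854. Immediate-early and heat-shock genes are also known to be induced while tissue is dissociated. Both lists were low in the 171 cells together with the NRF2, cytokine and interferon lists. The lists did not move together in every set of macrophages. In the 10% highest for heat-shock genes, the median log2 ratio over the rest was 1.19 for immediate-early genes. There it was 0.19 for NRF2 targets, -0.23 for cytokines and -1.10 for interferon-stimulated genes. The part of immediate-early and heat-shock genes in the other differences was not tested.

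Promoter sequences are shown for 4 genes of these low lists and for Tgfbr1, each of which holds the letters of a known response element. The 250 bases before the transcription start of the first RefSeq entry of each symbol (GRCm38.p6, the build mm10) were searched on both strands. They are printed 5′ to 3′ in the direction of transcription, with the matches to the element named below for each gene in capitals.
Isg15 (chr4:156200819-156201068, minus strand): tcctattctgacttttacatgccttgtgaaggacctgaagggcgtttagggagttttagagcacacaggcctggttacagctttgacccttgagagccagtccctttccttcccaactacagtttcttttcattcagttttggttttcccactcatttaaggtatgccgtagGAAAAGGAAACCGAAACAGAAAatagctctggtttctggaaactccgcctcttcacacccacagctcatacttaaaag
Rsad2 (chr12:26456453-26456702, minus strand): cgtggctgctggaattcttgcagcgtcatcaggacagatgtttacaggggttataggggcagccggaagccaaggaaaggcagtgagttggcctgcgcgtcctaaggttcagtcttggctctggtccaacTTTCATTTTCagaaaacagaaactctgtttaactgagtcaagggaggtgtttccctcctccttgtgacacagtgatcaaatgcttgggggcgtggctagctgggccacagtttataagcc
Cxcl2 (chr5:90903649-90903898, plus strand): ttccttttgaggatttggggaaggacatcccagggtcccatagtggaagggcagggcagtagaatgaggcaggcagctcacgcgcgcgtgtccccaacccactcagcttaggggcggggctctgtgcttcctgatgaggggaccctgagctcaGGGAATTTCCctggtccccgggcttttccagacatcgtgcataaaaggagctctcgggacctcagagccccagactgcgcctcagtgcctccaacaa
Gclm (chr3:122245307-122245556, plus strand): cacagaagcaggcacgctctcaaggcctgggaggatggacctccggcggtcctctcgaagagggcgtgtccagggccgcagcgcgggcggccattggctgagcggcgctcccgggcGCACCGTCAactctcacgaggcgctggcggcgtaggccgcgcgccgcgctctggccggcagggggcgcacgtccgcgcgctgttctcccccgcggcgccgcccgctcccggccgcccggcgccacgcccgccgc
Tgfbr1 (chr4:47352972-47353221, plus strand): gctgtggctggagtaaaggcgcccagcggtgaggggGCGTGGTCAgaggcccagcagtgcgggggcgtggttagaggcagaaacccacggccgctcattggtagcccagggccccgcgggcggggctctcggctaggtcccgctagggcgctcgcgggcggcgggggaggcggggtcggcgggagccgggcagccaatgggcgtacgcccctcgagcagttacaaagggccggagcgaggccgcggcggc

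In Isg15 and Rsad2 the capitals mark the interferon-stimulated response element. Isg15, a ubiquitin-like protein that stood at 95.3 beside 618 CPM, held 3 overlapping copies, and Rsad2 held 1, on the opposite strand. This motif was found in 15 of the 27 interferon-list promoters in the table and in 3.04% of all 27025 promoters. In Cxcl2 the capitals mark the NF-kB motif, found in 5 of 24 cytokine-list promoters and 0.337% of all. In Gclm and Tgfbr1 they mark the antioxidant response element, TGACNNNGC, which was found in 4 of 19 NRF2-target promoters and 10.1% of all. A gene chosen for being high and a gene of the low list thus share that short motif. That element was also found in 6 of 24 immediate-early promoters, 5 of 27 interferon-list and 2 of 24 cytokine-list promoters. The AP-1 letters TGANTCA were found in 6.87% of all promoters, in 0 of 24 immediate-early, 6 of 24 cytokine-list, 6 of 27 interferon-list and 3 of 19 NRF2-target promoters. They overlapped no marked antioxidant element. Rsad2 also held the antioxidant element and the AP-1 letters, which are left in small letters above. Of the 6 genes of the rule, only Tgfbr1 and Myo1f held any of the 4 motifs, the antioxidant element in both. Such matches describe letters in this window.

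Across all gated macrophages, ordered by score into 10 deciles of 170 or 171 cells, the low lists were lower in decile 10 than in decile 1 and already lower in the deciles before it. The course was not even. Heat-shock genes went from 26922 to 29399 CPM and immediate-early genes from 6800 to 7442 CPM between deciles 1 and 2, and cytokines from 17227 to 18674 CPM between deciles 4 and 5. From decile 1 to decile 10, summed levels went from 63072 to 38869 CPM for NRF2 targets, from 27037 to 5959 CPM for cytokines and from 16275 to 3072 CPM for interferon-stimulated genes. Hmox1 stood at 5049 CPM in decile 1, 1139 CPM in decile 9 and 653 CPM in decile 10. Rsad2 stood at 3086, 376 and 91.4 CPM in the same deciles. Cxcl2 peaked in decile 2, at 7695 CPM, before it declined to 1093 and 373 CPM. Lysosomal genes, at 21656 and 23610 CPM in deciles 1 and 10, and respiratory chain genes, at 4294 and 4490 CPM, differed by far less.

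**Figure D3:**
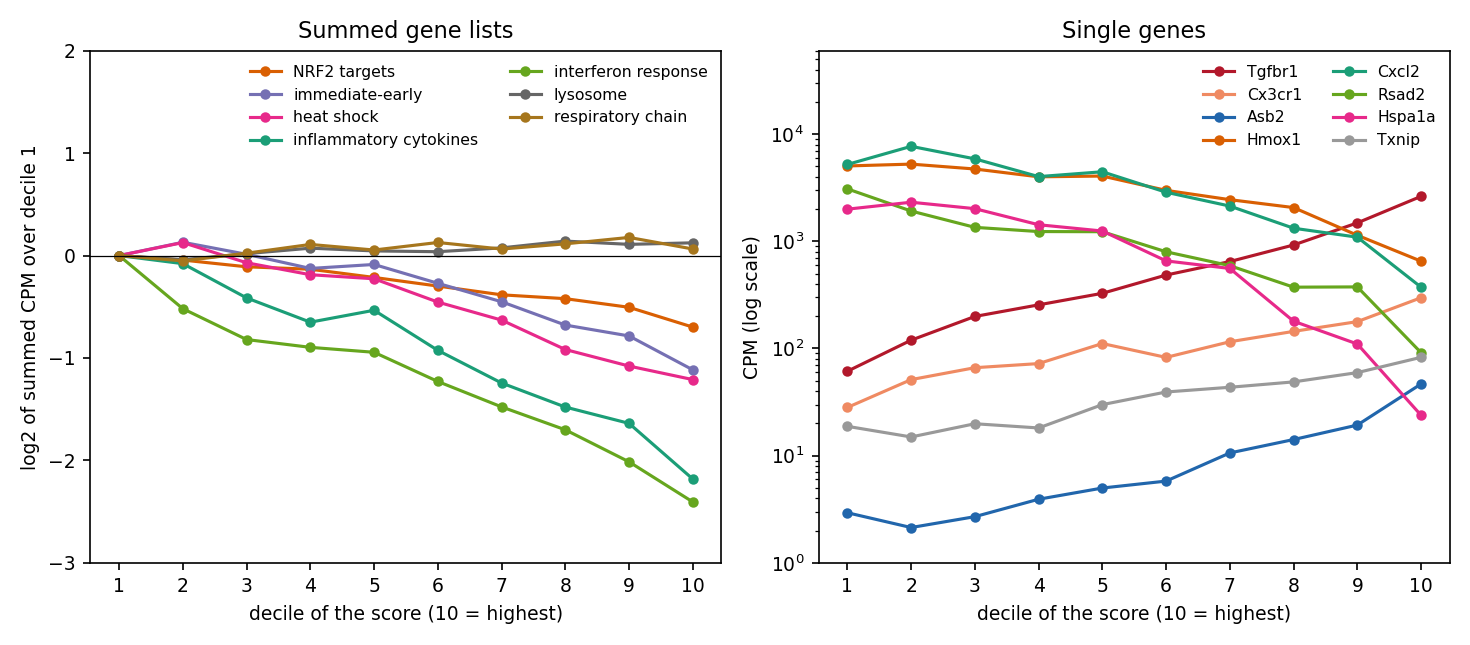
Gated macrophages in 10 deciles of the score (x axis, 10 highest), each point a decile of 170 or 171 cells: left, log2 of the summed CPM of 7 gene lists relative to decile 1; right, CPM of 8 genes on a log axis. Cytokine, interferon, heat-shock, immediate-early and NRF2 target lists go down with the score, lysosomal and respiratory chain lists stay near 0, and Asb2 and Txnip go up with Tgfbr1 and Cx3cr1.

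Of 33 genes of the TGF-beta pathway beside Tgfbr1, 5 were higher (15.2%) and 4 lower (12.1%), beside 22.2% and 14.9% of all genes. Their median log2 ratio was 0.16, that of all genes. Their summed level was higher, at 4607 beside 3449 CPM. Over single cells its median was 4650 beside 3327 CPM, and 24 of the 171 cells (14%) lay below the other cells' median. Much of the gap in the sum came from Tgfbi, at 1026 beside 542 CPM, Itgb8 and Itgb5. With the median-ratio scaling the list's median log2 ratio was -0.03. Among ligands, Tgfb1 stood at 238 beside 162 CPM (ratio 1.47, 1.36 to 1.59). Among the integrins that release the ligand from its latent form, Itgb5 stood at 346 beside 169 CPM (ratio 2.05, 1.92 to 2.19) and Itgb8 at 432 beside 229 CPM (ratio 1.89). Lrrc32, which tethers latent TGF-beta to the cell surface, had 6 UMIs in the 171 cells and a ratio of 0.109, and Thbs1, another activator, a ratio of 0.617. The partner receptor Tgfbr2 had a ratio of 1.34 (1.23 to 1.46), under the 1.5-fold call. It cannot be set against the difference in Tgfbr1, which was used to choose the cells.

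Downstream, the signal transducer Smad3 had a ratio of 1.21 (1.01 to 1.44), which turned under 3 alternatives, the inhibitor Smad7 of 0.803 (0.645 to 0.990) and the repressor Skil of 1.12. Smad5, which is not among the SMADs named above for this kinase, was 1.54-fold higher on 43 UMIs. Its log2 ratio, 0.63, ran from 0.35 to 1.25 over the alternatives, so the 1.5-fold call did not hold in all. Tgfbi, a matrix protein named for its induction by TGF-beta, stood at 1026 beside 542 CPM (ratio 1.89, 1.82 to 1.97). Of these 5 genes, Smad5 and Tgfbi were past 1.5-fold.

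Chemoattractant receptors beside Cx3cr1 were higher in 5 of 18 (27.8%) and lower in 3 (16.7%), near the 22.2% and 14.9% of all genes. With the median-ratio scaling 3 were higher and 3 lower. P2ry6, a receptor for UDP, stood at 261 beside 123 CPM (ratio 2.13, 1.97 to 2.29). Cmklr1, the chemerin receptor, had a ratio of 1.87 and Cxcr4 of 1.66. Ccrl2, an atypical receptor that binds chemerin, was low, at 71.1 beside 304 CPM (ratio 0.234). The ligand of CX3CR1 was scarce in both groups: Cx3cl1 had 14 UMIs in the 171 cells, 4.51 beside 4.17 CPM.

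Genes known from homeostatic microglia were near the shares of all genes, 22.2% higher and 14.9% lower. Of 25 measured, 5 were higher (20%) and 4 lower (16%), with a median log2 ratio of 0.22. Selplg, which encodes PSGL-1, had a ratio of 1.79 and Tmem119 of 1.51. P2ry12, the best-known microglial marker of this list, stood at 9.01 beside 9.28 CPM (ratio 0.971, 0.635 to 1.43), and Sall1 had no UMI in either group. Gpr34 and Maf, with ratios of 1.66 and 1.59, drew 17.9% and 12% of their UMIs in the 171 cells from 1 cell each. The value for P2ry12 depended on the choice of cells: its log2 ratio, -0.04, was 0.86 when the 6 genes had equal weight and 0.70 against the lowest 10% of cells by score.

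Other myosin genes beside Myo1f had no common direction. Of 20 other myosin genes 2 were higher (10%) and 2 lower (10%), beside 22.2% and 14.9% of all genes. Myo18a and Myo9a had ratios of 1.59 and 1.53, Myo10 and Myo1d of 0.381 and 0.465.

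In the pathway of TIFA and TRAF6, which leads to NF-kB, 3 of 35 genes were higher (8.57%) and 5 lower (14.3%). Over all genes these shares were 22.2% and 14.9%. Tifa, the relative of Tifab, stood at 43.1 beside 22.4 CPM (ratio 1.92, 1.59 to 2.31). Tab1, a partner of the kinase TAK1, had a ratio of 3.45 and Cyld, a deubiquitinase that restrains the pathway, of 1.60. The NF-kB feedback genes Tnfaip3 and Tnip3 had ratios of 0.394 and 0.565. Traf6 itself had a ratio of 0.839 (0.663 to 1.05).

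Of 48 transcription factors of macrophages other than Pou2f2, 10 were higher (20.8%) and 16 lower (33.3%), beside 22.2% and 14.9% of all genes. Under the median-ratio scaling 5 were higher and 19 lower. Spi1, which encodes PU.1, the factor that specifies macrophages, stood at 806 beside 456 CPM (ratio 1.77, 1.70 to 1.85). The haematopoietic factors Fli1 and Ikzf1 had ratios of 2.40 and 1.90, Tfeb, a regulator of lysosomal genes, of 1.93 and the relative Pou2f1 of 1.61. The lower factors included inducible ones: Nr4a1 had a ratio of 0.208, Nr4a2 of 0.113, Nr4a3 of 0.246 and Klf4 of 0.118. Pou2af1, the coactivator of Oct2 in B cells, had no UMI in the 171 cells and 5 in the others.

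The word quiescent in the working name of these cells could be compared with 2 lists. Of 30 genes known for growth arrest, 10 were higher (33.3%) and 7 lower (23.3%), beside 22.2% and 14.9% of all genes. Under the median-ratio scaling 7 were higher and 8 lower. Cdkn1b, the cell cycle inhibitor p27, stood at 58.6 beside 21.5 CPM (ratio 2.73, 2.30 to 3.21). Zfp36l2, an RNA-binding protein that promotes mRNA decay, had a ratio of 2.55 and Rbl2, a pocket protein of the retinoblastoma family, of 2.47. Cdkn1a, the inhibitor p21, went the other way at 207 beside 653 CPM (ratio 0.318, 0.293 to 0.343), as did Tob2 at 0.439.

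Of 24 cell cycle genes 8 were lower (33.3%) and 2 higher (8.33%), beside 14.9% and 22.2% of all genes. Their median log2 ratio of -0.14 turned to 0.38 when cells were ranked within depth. Mki67 stood at 17.4 beside 46.4 CPM (ratio 0.375, 0.280 to 0.492), a log2 ratio of -1.42 that was -0.19 with ranking within depth, and Pcna at 93.7 beside 167 CPM (ratio 0.561), whereas Ccnd3, cyclin D3, had a ratio of 2.97, with 10.2% of its UMIs in the 171 cells from 1 cell. Top2a, with 18 UMIs in the 171 cells, had a ratio of 0.411, but its direction turned when cells were ranked within depth. Because these lists had no common direction, the cells are called here by the genes that chose them.

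Over all genes, the 15 higher genes with the firmest ratios were led by Asb2 (chr12:103321142-103356001), the substrate-binding part of a ubiquitin ligase that acts on filamins. Single cells had 0 to 465 CPM in both groups with a median of 0. The upper quartile was 80.4 CPM in the 171 cells and 0 in the others. Summed, Asb2 stood at 46.7 beside 7.24 CPM, a ratio of 6.45 (5.21 to 7.94). The next were Calhm2, a subunit of large-pore channels (ratio 4.92, 3.83 to 6.29), the zinc finger genes Zfp810 (4.03) and Zfp710 (3.35), and the metalloproteinase gene Adamts10 (3.79). Il16, a precursor of a T cell attractant, stood at 47.6 beside 13.8 CPM (ratio 3.44). Tab1, Espl1, Tubgcp5, Thap3, Dhx57, Ppp1r21, Extl3, Ivns1abp and Rin3 followed, with ratios from 2.69 to 3.45.

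Among the 15 lower genes, 7 belonged to the stress, interferon and inflammatory lists above: Hspa1a, Hspa1b, Rsad2, Cxcl2, Ptgs2, Fosl1 and Il6. The remaining 8 were Fap, Ifi205, Ccnf, Tmem267, Kctd19, Gm15726, Slc8a2 and Efr3b. Fap, a serine protease of the cell surface, stood at 5.47 beside 116 CPM (ratio 0.0471, 0.0274 to 0.0755), and Ifi205, an interferon-inducible gene, at 1.93 beside 54.7 CPM. Ccnf, cyclin F, had 3 UMIs in the 171 cells and 1236 in the others, and Slc8a2 had 1 and 535.

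The genes whose course over the 10 deciles was most like that of the 6 rule genes were Plekha1, Abcg1, Spi1, Fnbp1 and Synrg, out of 6428 compared. Their Pearson correlations ran from 0.994 to 0.997. The least alike were Irf1, Ptges3, Ifi207, Isg15 and Sp140, from -0.993 to -0.997. These correlations are over 10 points that share 1 library, and are given as a description. Abcg1, a cholesterol exporter, went from 80.7 CPM in decile 1 to 420 CPM in decile 10, and Isg15 from 1719 to 95.3 CPM.

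Surface proteins were read in the antibody library, which the choice of cells did not use. Each antibody carries a tag of 15 bases, given here because these sequences are what was counted, with every base of the tag in capitals.
CD9: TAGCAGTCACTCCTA
CD206: TCAACTCGGTGTTGC

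Surface CD9 in the 171 cells ran from 10 to 13376 antibody UMIs per cell with a median of 390, and in the other macrophages from 2 to 37469 with a median of 698. The ranges overlapped, and 69 of the 171 cells (40.4%) lay above the other cells' median. The means were 1338 and 1870 UMIs per cell (ratio 0.716, 0.713 to 0.719). This difference did not survive other ways of choosing the cells: the ratio was 1.20 when cells were ranked within deciles of RNA depth and 1.10 when the 6 genes had equal weight. Per RNA UMI it was 0.879. The level was also not graded along the score, with medians of 808.5 UMIs in decile 1, 401.5 in decile 6, 754 in decile 9 and 390 in decile 10. No direction is therefore given for surface CD9. Cd9 mRNA stood at 151 beside 224 CPM (ratio 0.673, 0.612 to 0.739).

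CD206 was low on most cells of both groups. In the 171 cells it ran from 0 to 242 UMIs with a median of 7, and in the others from 0 to 6365 with a median of 9. The means were 18.3 and 25.9 UMIs per cell (ratio 0.708, 0.682 to 0.734). Without the single other cell that held 6365 UMIs the ratio was 0.842, and per RNA UMI it was 1.03 (0.996 to 1.07). No direction is therefore given for surface CD206. Mrc1 mRNA stood at 22.5 beside 32.5 CPM (ratio 0.693, 0.536 to 0.882).

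**Figure D4:**
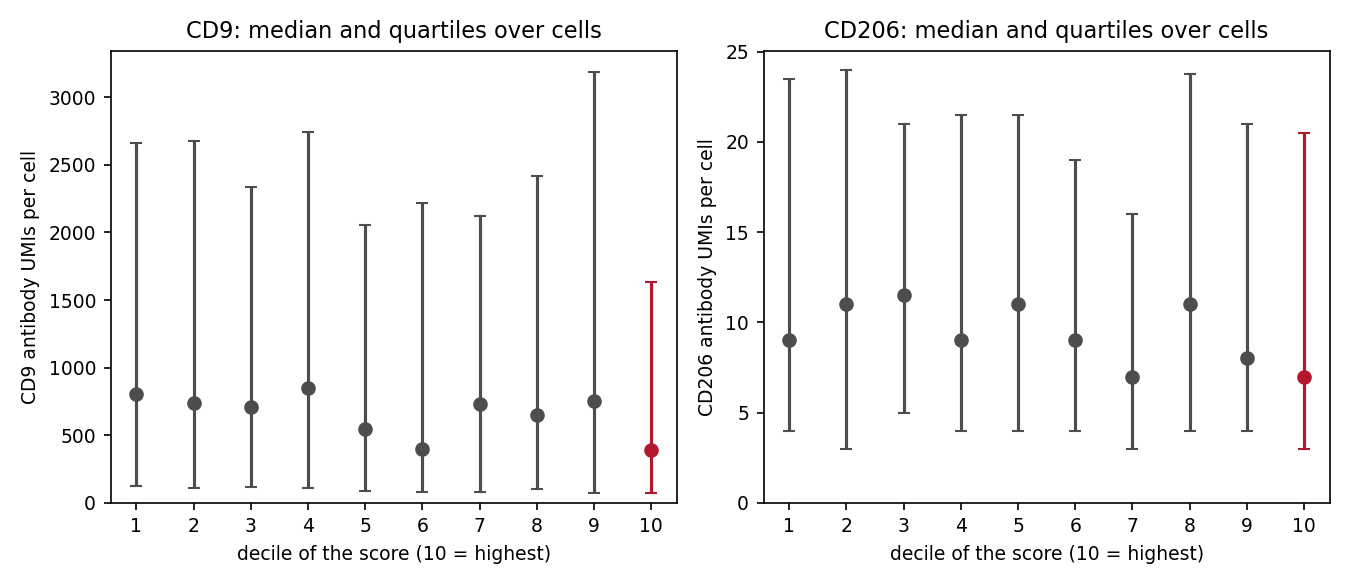
Antibody UMIs per cell (linear axes) for CD9 (left) and CD206 (right) over the 10 deciles of the score, as medians (points) with quartiles (bars) over 170 or 171 cells; decile 10, in red, holds the 171 chosen cells. The CD9 median is 390 in decile 10 and 401.5 in decile 6, and the quartiles overlap in all deciles for both antibodies.

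The 171 cells were also compared with one another. They were first divided by CD9 antibody UMIs per RNA UMI into 85 upper and 86 lower cells. Cd9 mRNA was 5.40-fold higher (4.18 to 7.08) in the upper cells, at 248 beside 46.0 CPM. The upper cells had less of Npnt, which encodes the matrix protein nephronectin, at 5.60 beside 97.3 CPM (ratio 0.0576, 0.0258 to 0.112), and of Fat3, an atypical cadherin (ratio 0.357). Npnt and Fat3 are of a list picked from CD9-low cells of this same sample, so their ratios here are no independent evidence. Cxcl2 had a ratio of 0.361, Rsad2 of 0.462, Hmox1 of 0.638 and Prdx1 of 0.750, so the sum over the lower cells held more of these. Il1b (1.30, 1.23 to 1.38) and Fos (1.65, 1.29 to 2.12) went the other way. Txnip (1.27, 0.984 to 1.64) and Asb2 (1.0, 0.713 to 1.41) had intervals that include 1.

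Divided by the score itself, the 85 higher cells had less Cxcl2 (ratio 0.621, 0.550 to 0.700) and Rsad2 (0.520, 0.402 to 0.669) than the 86 lower cells. Hmox1 and Prdx1 did not differ by this measure beyond counting error, at 1.03 (0.940 to 1.12) and 1.02 (0.969 to 1.07). Cd9 had a ratio of 0.910 (0.756 to 1.10).

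An adhesion and cytoskeleton list had been picked from CD9-low cells of this same sample, so it is no independent evidence. It had 7 of 11 genes higher in the 171 cells and 0 lower, with a median log2 ratio of 0.83. The alternatives moved this median between 0.21 and 1.5. With equal gene weights the log2 ratios of Fat3, Npnt and St5 fell to 0.21, 0.24 and 0.27, under the 1.5-fold call. St5 had a ratio of 2.36, Fat3 of 2.0 and Npnt of 1.78, the last with 11% of its UMIs in the 171 cells from 1 cell. Dlc1 had a ratio of 1.90 with 17.3% from 1 cell, and its direction turned under equal gene weights.

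The highest 10% of macrophages were also taken for 7 other gene sets, each of which holds 10% of all gated macrophages by construction. Of the 171 cells, 23 (13.5%, 8.72 to 19.5%) were also high for Pltp, Anxa1 and Clec4n, 16 (9.36%, 5.44 to 14.7%) for Il12b, Cd207 and Mmp13, and 14 (8.19%, 4.55 to 13.4%) for Slc40a1 and Pparg. The 3 intervals include 10%. Only 2 cells (1.17%) were also high for Pdpn, Il10 and Clec4e. For the interferon set, the heat-shock set and the set of Gdf15, Osm and Gclc the number was 0 of 171, with upper bounds of 2.13%. In none of the 7 sets were 122 of the 171 cells (71.3%), beside 652 of the 1535 others (42.5%). Conversely, the 6 rule genes summed to 498 CPM in the 171 cells of the interferon set beside 1416 CPM in the rest, and to 523 beside 1402 CPM for the heat-shock set.

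**Figure D5:**
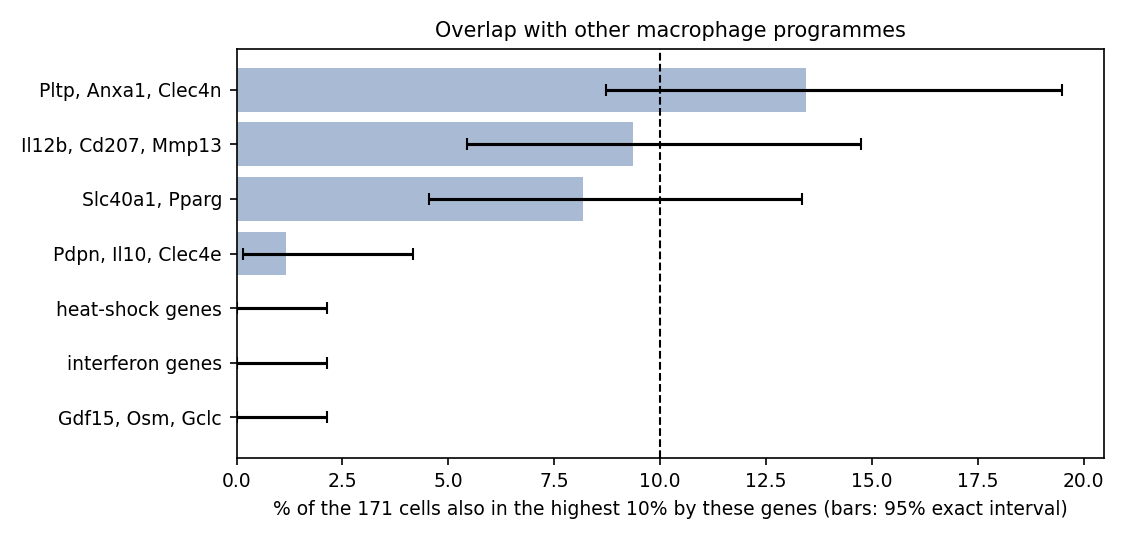
Percent of the 171 chosen cells that were also among the highest 10% of macrophages for each of 7 other gene sets (bars, from 0), with exact 95% Clopper-Pearson intervals and a dashed line at 10%, the share over all gated macrophages. The top 3 intervals include 10%, that of Pdpn, Il10 and Clec4e ends at 4.16%, and the 3 stress and interferon sets are at 0.

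Energy and lysosomal genes differed little between the groups. Of 39 respiratory chain genes 0 were higher and 0 lower, and of 31 lysosomal genes 1 and 3. MHC class II presentation and costimulation had 2 of 19 higher (10.5%) and 4 lower (21.1%), beside 22.2% and 14.9% of all genes. Ciita, the master regulator of class II genes, stood at 173 beside 74.2 CPM (ratio 2.34, 2.13 to 2.57), and Icosl, a ligand for the T cell receptor ICOS, had a ratio of 2.60, whereas Cd274 (PD-L1) and Cd40 had ratios of 0.409 and 0.652. The list's summed level was 69033 beside 64311 CPM.

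Toll-like receptors and adaptors had 4 of 18 higher (22.2%) and 1 lower (5.56%), beside 22.2% and 14.9% of all genes. Tlr4, the receptor for lipopolysaccharide, had a ratio of 1.94 and its adaptor Tirap of 2.09. Uptake and complement genes had 3 of 28 higher (10.7%) and 4 lower (14.3%). Stab1, a scavenger receptor, had a ratio of 1.88, Fcgr2b of 1.56 and Fcgr3 of 1.53. Growth factors had 4 of 15 higher (26.7%) and 5 lower (33.3%). Pdgfb stood at 525 beside 256 CPM (ratio 2.05, 1.95 to 2.17) and Hgf had a ratio of 1.96, whereas Areg had one of 0.282.

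Beside the counts of this paragraph stand 22.2% higher and 14.9% lower over all genes. Lipid-associated genes had 1 of 27 higher (3.7%) and 6 lower (22.2%). The higher gene was Abcg1, at 420 beside 191 CPM (ratio 2.20, 2.07 to 2.34), and the lower ones included the fatty acid binding protein Fabp5 (0.218), Gpnmb (0.266) and Spp1 (0.286). In heme and iron handling, 2 of 18 genes were higher and 5 lower, and the summed level lay below the other cells' median in 143 of the 171 cells (83.6%). Spic, a transcription factor of macrophages that recycle heme, had a ratio of 0.413 and the heme transporter Slc48a1 of 0.423. Hamp, the iron hormone hepcidin, had no UMI in the 171 cells and 219 in the others. Glucose transport and glycolysis had 3 of 20 higher and 5 lower, with Slc2a1 at 0.366 and Pfkfb3 at 1.55. Purinergic genes had 2 of 15 higher and 6 lower, and P2rx7, the receptor for extracellular ATP, a ratio of 0.457. Of 16 tetraspanins 2 were higher, Tspan7 (ratio 1.88, 37 UMIs in the 171 cells) and Tspan2, which had 5 UMIs there.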

How the data were processed

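The deposited files hold UMI counts per cell for genes and antibody tags; per the file headers they come from Cell Ranger 8.0.1. The submitters' processing notes name mm10 as the build. How barcodes were kept is not stated. The matrix held 32285 genes, 2 tags and 2237 barcodes, all of which had antibody UMIs.

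Macrophages were cells with at least 200 genes, at most 10% mitochondrial UMIs, at least 5000 RNA UMIs and at least 2000 CPM of C1qa, C1qb and C1qc summed. These steps left 2233, 2215, 2003 and 1706 cells. The 10% with the highest summed CPM of the 6 genes were compared with the rest. Scrublet (scanpy 1.11.5) marked 6 of 2215 cells (0.271%), too few to rely on, so doublets were kept.

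UMIs were summed over cells, 3107259 and 34252967 in the 2 groups. Ratios carry exact conditional binomial 95% intervals, levels Poisson and shares Clopper-Pearson intervals. A gene was called at 1.5-fold with at least 20 UMIs. With 1 sample no test was run. The ratio step was tested on simulated data.

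Named were up to 4 genes each way per list (at least 100 UMIs, past 1.5-fold, by the interval bound nearest 1) and 15 each way over all genes (at least 200 UMIs, at most 10% of the higher group's UMIs in 1 cell, leaving out rule, mitochondrial, ribosomal, endocrine and acinar genes). A fixed set of regulators and targets, marker lists and the 5 most and least alike genes over deciles (log2 of CPM + 10, at least 500 UMIs) were added. The members and lists were chosen with earlier results of these data known. Promoters are the first RefSeq entry per symbol (GRCm38.p6). Where 2 gene IDs shared a symbol (38 symbols), the one with more UMIs was used. Some list members and 2 lists are not reported here. Alternatives changed the group's size, score, depth, scaling, UMI minimum, doublets and the cells compared with.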

Additional observations from a re-analysis of the deposited data

How the results depend on the processing

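No paired analysis was possible because the series is 1 sample, and no replicate was left out. The depth of 171 cells limits genes of few UMIs, such as Ccl7, Ccnf and Slc8a2, and leaves mice, days and sorts unmeasured. Rankings without Tgfbr1 and ratios without the cell richest in CD206 were added after seeing the data.

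Against 2884 genes higher and 1937 lower, 1787 were higher with the median-ratio scaling. With at least 100 UMIs 1068 were lower, with cells thinned to 5000 UMIs 1282, and against the lowest 10% by score 1093. The NRF2 target median, -0.67, was -0.81 for the highest 5% of cells, -0.47 for the highest 20%, -0.89 with equal gene weights, -0.87 with the median-ratio scaling and -0.82 without Tgfbr1. The immediate-early median, -1.32, was -0.86 with equal weights, and the cytokine median, -1.49, was -2.19 without Tgfbr1. No alternative turned the direction of these 3 medians. For heat-shock genes the range was -1.55 to -0.92 and for interferon-stimulated genes -1.76 to -0.82.

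The CD9 ratio, 0.716, turned to 1.20 with ranking within RNA depth and to 1.10 with equal gene weights. It was 0.565 for the highest 5% and 0.958 for the highest 20%. Without Cx3cr1 in the score it was 0.745 and without Tgfbr1 0.902. It was 0.726 with at least 10000 UMIs, 0.743 without the highest doublet scores and 0.757 against the lowest 10%. As a ratio of medians it was 0.559 and per RNA UMI 0.879. The CD206 ratio, 0.708, was 0.548 and 0.643 for the highest 5% and 20%, 0.866 within depth, 0.863 with equal weights, 0.743 with at least 10000 UMIs, 0.311 against the lowest 10%, 0.778 for medians and 0.869 per RNA UMI. Without the cell of 6365 CD206 UMIs it was 0.842, turned to 1.03 per RNA UMI and was 0.838 against the lowest 10%, so that 1 cell accounts for most of the shift to 0.311. Without it the ratio was also 1.03 with ranking within depth and with equal gene weights. The cause of the other shifts was not tested.

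Of the named genes past 1.5-fold, 12 turned direction in 18 of the values computed, as log2 ratios. Another 7 within 1.5-fold crossed 0 in 16 values: Smad3, P2ry12, Mrc1, Cx3cl1, Keap1, Nfe2l2 and Skil. With equal gene weights Dlc1 was at -0.16, Fcrls at 0.98, H2-Eb2 at 0.95, Klf2 at 1.25 and Mgst1 at 0.14. Without Tgfbr1 in the score Fcrls was at 1.0, H2-Eb2 at 0.80, Klf2 at 0.32 and Mgst1 at 0.21. Ranked within depth Adora2a was at 0.24, Stmn1 at 0.81 and Top2a at 0.54. For the highest 20% of cells Klf2 was at 0.32 and Stmn1 at 0.070. Against the lowest 10% P2ry2 was at 1.28 and Racgap1 at 2.14, and with thinning Ccr7 was at 0.023 and Slc2a3 at -0.026.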

Other observations

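Zinc finger genes with symbols that start with Zfp, a family of mostly repressive DNA-binding proteins looked at after their values had been seen, were often high in the Cx3cr1 and Tgfbr1-high cells. Of 220 with at least 100 UMIs, 89 were at least 1.5-fold higher (40.5%, beside 20.9% of all genes with at least 100 UMIs) and 12 lower, with a median log2 ratio of 0.47. Scarce genes were called higher more often than abundant ones. With genes of at least 100 UMIs that have a RefSeq entry ordered by their summed UMIs into 4 groups of nearly equal size, 33.5% of the scarcest and 7.63% of the most abundant group were higher, and 16.2% and 11% were lower. The part of abundance in the count for zinc finger genes was not tested. At the same minimum all 6 Ifit genes, 7 of 11 Ccl genes and 5 of 7 Cxcl genes were lower.

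Among long noncoding RNAs, Malat1 stood at 24212 beside 20816 CPM, Neat1 at 198 beside 252 CPM and Kcnq1ot1 at 81.1 beside 163 CPM. The hemoglobin gene Hba-a1 had 17 UMIs in the 171 cells, 58.8% of them in 1 cell. The 8 markers of stromal resident macrophages summed to 69.5 beside 87.6 CPM. Of the 6 measured, 0 were higher and 3 lower (50%, beside 14.9% of all genes). Mrc1, one of the 8, had 70 UMIs in the 171 cells and 1114 in the others. In the 171 cells Lyve1 had no UMI, Timd4 and Cd163 had 1 each and Folr2 had 2, while Timd4 and Folr2 had 226 and 308 in the other macrophages.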
